A study of Caenorhabditis elegans with 35 samples.

Results

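The RNA-dependent RNA polymerase genes ego-1, rrf-1, rrf-2 and rrf-3 and the nuclear RNA interference (RNAi) gene nrde-2 were followed across the arrays of a Caenorhabditis elegans study of inherited longevity. The 5 genes were taken by name from the gene symbol column of the deposited expression tables, in which nrde-2 carries its sequence name T01E8.5. Each gene had 1 probe set, so they make up 5 of the 20806 probe sets tested and 5 of 16780 genes that a probe set names without ambiguity. In the WBcel235 gene table, ego-1 and rrf-1 are neighbouring protein-coding genes on chromosome I, rrf-2 also lies on chromosome I, and rrf-3 and nrde-2 lie on chromosome II.

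Total RNA of whole worms at the L3 larval stage was labelled with biotin and hybridised to 35 arrays. Worms of 2 generations, F4 and F5, came from 3 lineages: wild type with wild-type ancestors (+/+ from +/+), wdr-5/wdr-5 homozygotes, called wdr-5 mutants, and wild-type animals whose ancestors carried the mutation (+/+ from wdr-5). The wdr-5 allele and the strain background were not given in the sources used here. Every group held 6 arrays, 3 on each of 2 birth days, except F5 +/+ from wdr-5, which held 2 arrays on birth day 1 and 3 on birth day 2. Nothing in the labels said that arrays of a group came from separate cultures, so p-values measure the spread between these arrays, which may be technical.

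Worms amplify RNAi by copying target RNA. An RNA-dependent RNA polymerase (RdRP) uses a targeted transcript as template and makes secondary small interfering RNAs (siRNAs), which Argonaute proteins then carry to further transcripts. EGO-1 is the RdRP needed for germline development and works with the Argonaute CSR-1, RRF-1 is the RdRP needed for RNAi in the soma and also acts in the germline, and RRF-3 makes primary endogenous siRNAs and limits the response to foreign double-stranded RNA. A role in RNAi is less well established for RRF-2. NRDE-2 acts in the nucleus, where siRNA-loaded Argonautes bring it to nascent transcripts, and it is needed for silencing during transcription and for its inheritance. The WDR-5 protein belongs to complexes that methylate histone H3, and the comparison of wild-type descendants with wild type asks whether expression differences persist after the mutation has been lost.

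Values are deposited log2 intensities, and levels are compared within a birth day because the days differed in the scale of low values (5th percentile of an array 3.04 to 3.23 on day 1 and 4.12 to 4.21 on day 2). The wdr-5.1 probe set read 4.01 to 5.91 in F4 mutants and 4.32 to 5.17 in F5 mutants, against 8.30 to 8.88 in the other groups. Mutant or wild-type genotype thus matched the label on every array. Lineage of the wild-type groups and generation cannot be checked by this probe set. Markers of germline, muscle, intestine and neurons were above their array's 25th percentile on every array, and so were the oocyte, sperm and yolk genes measured. In RNA from whole animals, more cells of a type and more RNA per cell cannot be told apart. Arrays of the same group and day correlated at r = 0.973 to 0.997 over all probe sets.

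Of the 5 genes, rrf-2 and nrde-2 were higher in wdr-5 mutants than in +/+ from +/+ of both generations, and ego-1 was higher in F5 mutants. In F4 mutants rrf-2 was 1.48-fold and nrde-2 1.26-fold the level of +/+ from +/+. In F5 mutants rrf-2 was 1.60-fold, ego-1 1.56-fold and nrde-2 1.15-fold that level. Neither rrf-1 nor rrf-3 passed the test in either generation over both days. With 2 of 5 genes higher in F4 and 3 of 5 in F5, the background was that 10.3% of all probe sets passed in F4 (4.77% in the higher direction) and 33.1% in F5 (16.9% higher). Tests were limma moderated tests with a birth day term, adjusted over all 20806 probe sets, with an adjusted p under 0.05 taken as a call. Differences below are log2 differences with SE, over 6 mutant and 6 +/+ from +/+ arrays. No member passed in the comparison of wild-type descendants with +/+ from +/+, where no probe set passed at all.

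**Figure D1:**
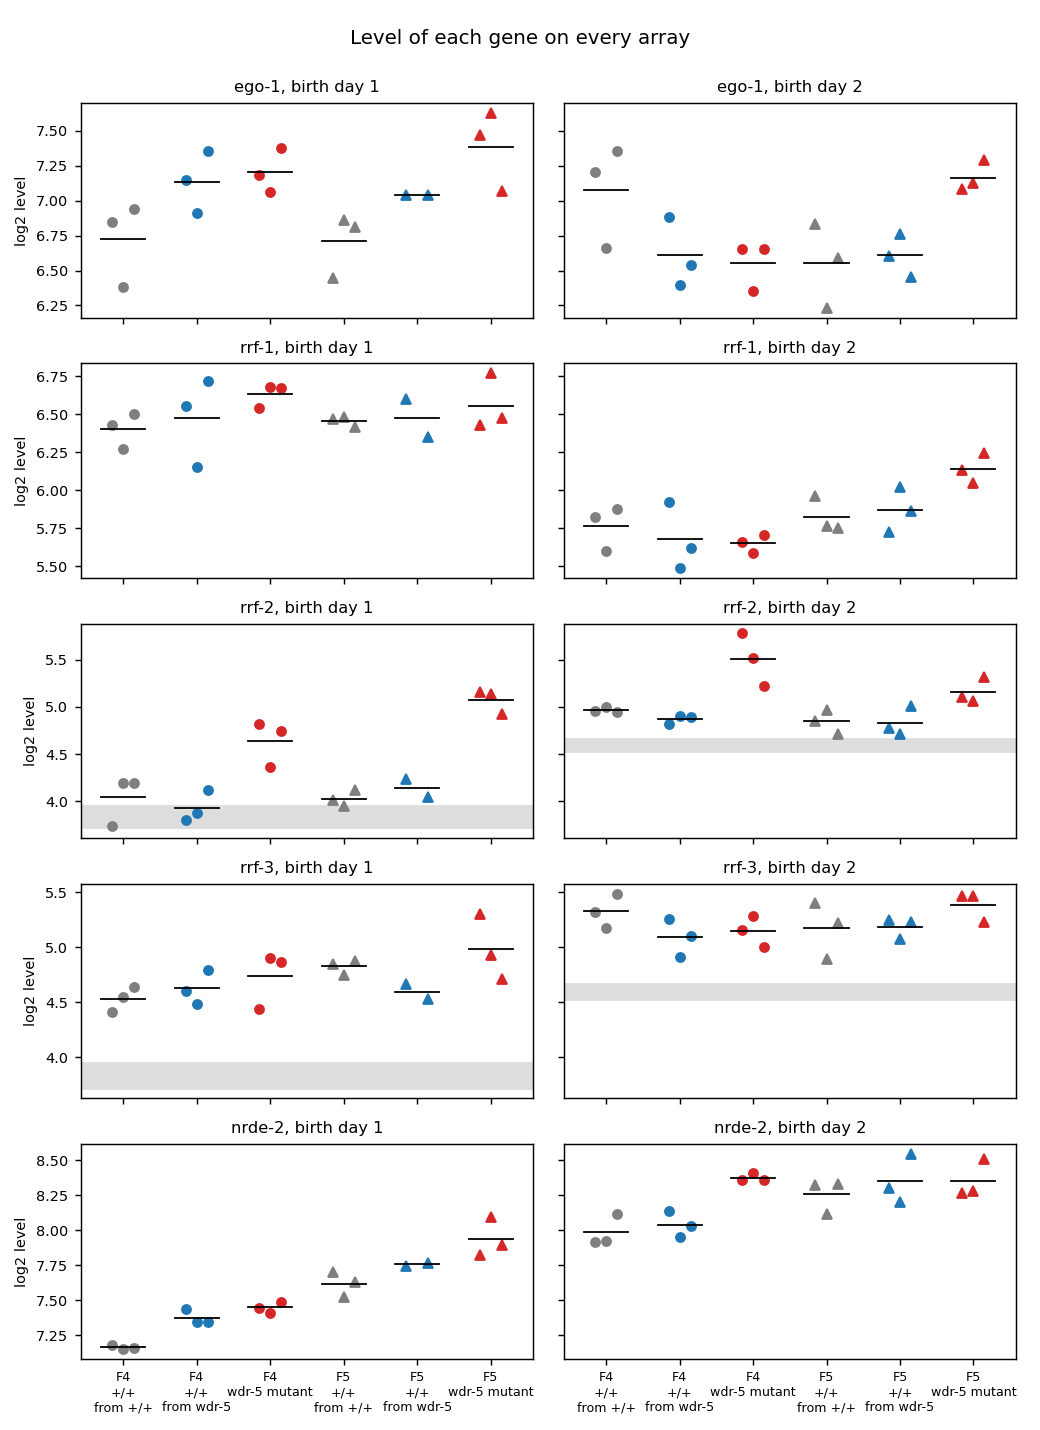
Log2 level of each gene (vertical axes) on every array, with birth day 1 on the left and day 2 on the right. Points are arrays (circles F4, triangles F5; grey +/+ from +/+, blue +/+ from wdr-5, red wdr-5 mutants), bars are group means and the grey band, in the rrf-2 and rrf-3 panels, is the range of the arrays' 25th percentiles. The red points of rrf-2 lie above the grey and blue points of the same generation on both days, and those of F4 ego-1 lie above the F4 grey points on day 1 and below them on day 2.

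The ego-1 transcript, for the germline RdRP, was higher in F5 mutants on both days, whereas the F4 difference turned round between the days. On birth day 1 its log2 levels were 6.85, 6.38 and 6.94 in F4 +/+ from +/+, 7.15, 6.92 and 7.35 in F4 +/+ from wdr-5 and 7.19, 7.06 and 7.38 in F4 mutants. On birth day 2 the same groups read 7.21, 6.66 and 7.36, then 6.89, 6.40 and 6.54, then 6.65, 6.36 and 6.65. The 3 F4 mutant arrays of day 1 were above every +/+ from +/+ array of that day, and the 3 of day 2 were below every one. The day 2 gap was narrow, from 6.652 on the highest mutant array to 6.660 on the lowest +/+ from +/+ array. The share of all probe sets with this pattern was not counted.

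The mean F4 mutant difference of ego-1 over both days was therefore near 0, at -0.02 ± 0.16 (95% interval -0.34 to 0.30, adjusted p = 0.952, limma). Within days it was 0.48 ± 0.18 on day 1 (adjusted p = 0.0391, with 36.6% of all probe sets called) and -0.52 ± 0.18 on day 2 (adjusted p = 0.0559, with 13.4% called). The day 2 difference minus the day 1 difference was -1.002 ± 0.26 (adjusted p = 0.00401), in a comparison in which 33.0% of all probe sets varied between days. Removing F4 +/+ from +/+ replicate 2 gave a mean difference of -0.16, while removing replicate 4 or 6 of that group or F4 mutant replicate 5 turned the sign, with values up to 0.11.

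In F5, ego-1 read 6.45, 6.86 and 6.81 in +/+ from +/+ on day 1, 7.04 on both +/+ from wdr-5 arrays, and 7.47, 7.63 and 7.07 in mutants. The day 2 levels were 6.84, 6.23 and 6.59 in +/+ from +/+, 6.60, 6.77 and 6.46 in +/+ from wdr-5 and 7.08, 7.13 and 7.29 in mutants. Every F5 mutant array lay above all +/+ from +/+ and +/+ from wdr-5 arrays of its day, which held for 8.48% and 8.45% of all probe sets in the respective comparisons.

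The F5 mutant difference of ego-1 was 0.65 ± 0.16 (adjusted p = 0.00238, limma), with 0.68 ± 0.18 on day 1 (adjusted p = 0.00668, with 25.2% of all probe sets called) and 0.61 ± 0.18 on day 2 (adjusted p = 0.0184, with 19.1% called). Against F5 +/+ from wdr-5 it was 0.47 ± 0.17 (adjusted p = 0.0317), a call that was lost without F5 +/+ from wdr-5 replicate 4 or 6 or F5 mutant replicate 1, 2, 5 or 6, where the adjusted p reached 0.0825. It was also lost without a birth day term (adjusted p = 0.0788), on day 1 alone (0.35, adjusted p = 0.236), under quantile normalization (adjusted p = 0.0527) and with the germline marker mean as a covariate (0.18, adjusted p = 0.563). The generations were compared by the contrast of their mutant differences. The F4 difference minus the F5 difference was -0.67 ± 0.22 over both days (adjusted p = 0.176, 0.00961% of all probe sets called), -0.20 ± 0.26 on day 1 (adjusted p = 0.784, 0.327%) and -1.13 ± 0.26 on day 2 (adjusted p = 0.00264, 20.2%). The contrast over both days passed with a mean for each group and day in the fit (-0.67 ± 0.18, adjusted p = 0.0368). Between generations, ego-1 of F5 minus F4 +/+ from +/+ was -0.27 ± 0.16 over both days (adjusted p = 0.222) and -0.52 ± 0.18 on day 2 (adjusted p = 0.0490, 16.2% of all probe sets called). That day 2 value lay at the threshold and was not called with only the day 2 arrays in the fit.

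Germline markers moved with ego-1. None of the 19 measured germline markers passed in F4 mutants over both days, where 10.3% of all probe sets did. On day 1, 11 rose and none fell (median 0.32, with 36.6% of all probe sets called). On day 2 none rose and 9 fell (median -0.35, with 13.4% called). In F5 mutants 11 of 19 rose and none fell (median 0.32, against -0.03 over all probe sets), where 33.1% of all probe sets were called and 16.9% were higher. The mean level of the list ran from 7.63 to 7.84 in F4 +/+ from +/+ and 7.99 to 8.09 in F4 mutants on day 1, and from 8.17 to 8.33 and 7.80 to 8.04 on day 2. In F5 it ran from 7.63 to 7.67 in +/+ from +/+ and 7.80 to 8.22 in mutants on day 1, and from 7.83 to 7.84 and 7.91 to 8.27 on day 2.

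Oocyte and yolk genes moved further still in the same direction. Over both days all 8 oocyte markers and all 6 yolk genes rose in F5 mutants (median 1.41 and 1.99, 33.1% of probe sets called). By day, 8 and 3 of them rose on day 1 (25.2% called) and 8 and 5 on day 2 (19.1%). The yolk mean was uneven between F5 mutant arrays. Mutant replicate 3 (8.09) lay under F5 +/+ from +/+ replicate 1 (8.54) on day 1. On day 2 mutant replicate 6 (9.49) lay under F5 +/+ from +/+ replicate 4 (9.58). The other F5 mutant arrays lay above every F5 +/+ from +/+ array of their day. In F4 mutants 8 oocyte and 3 yolk genes rose on day 1 (36.6% called), and 6 and 1 fell on day 2 (13.4%). Over the 35 arrays, centred on their birth day, ego-1 correlated at r = 0.59 with the germline mean, 0.51 with the sperm mean, 0.51 with the oocyte mean and 0.56 with the yolk mean. Arrays of one group share genotype, lineage and generation, so these coefficients are descriptions. With the germline mean as a covariate, an alternative added after the data were seen, the F5 difference of ego-1 was 0.36 ± 0.16 (adjusted p = 0.127) in place of 0.65. The germline mean was itself higher in F5 mutants, so covariate and genotype cannot be told apart in that fit. The markers' part in the ego-1 difference was not tested.

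**Figure D2:**
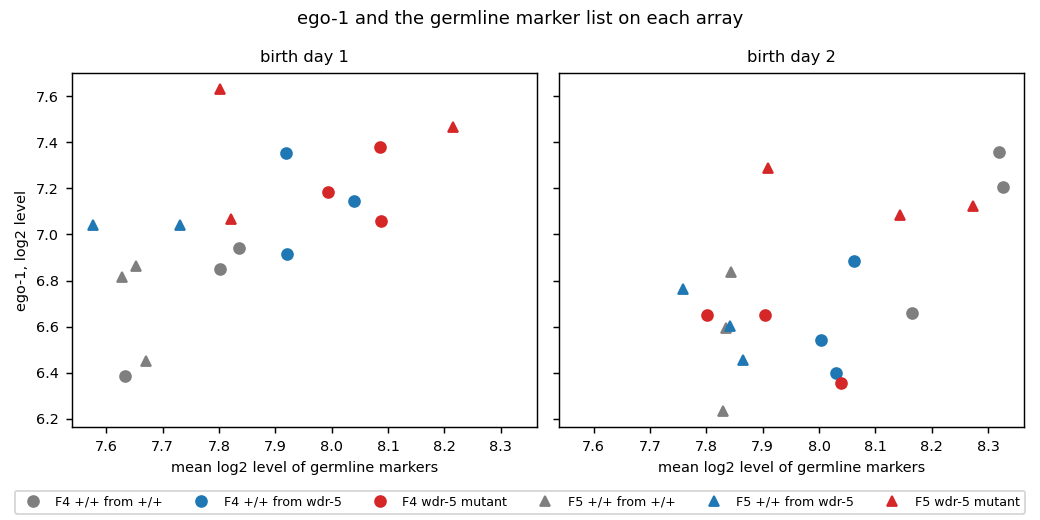
Log2 level of ego-1 (vertical axis) against the mean log2 level of the 19 germline markers (horizontal axis) on each array, by birth day. The F4 mutants (red circles) sit right of and above F4 +/+ from +/+ (grey circles) on day 1 and left of and below them on day 2, while F5 mutants (red triangles) sit right of and above F5 +/+ from +/+ (grey triangles) on both days.

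The rrf-1 transcript, for the RdRP of somatic RNAi, did not pass in any of the 6 direct comparisons. Its levels ran from 6.15 to 6.77 on day 1 and from 5.49 to 6.25 on day 2. The F5 mutants of day 2 read 6.13, 6.05 and 6.25, above every other array of that day. The share of all probe sets with such a separation was not counted, and the F5 mutant difference of that day was not called. The F4 mutants of day 2 read 5.66, 5.59 and 5.71 and lay among the other F4 groups. No neighbouring groups in the order of means on day 1 differed by more than the larger of their SDs, and on day 2 only the F5 mutants were set off from the next group by more than that.

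The mutant difference of rrf-1 was 0.06 ± 0.09 in F4 (95% interval -0.13 to 0.25, adjusted p = 0.726) and 0.21 ± 0.09 in F5 (0.02 to 0.40, adjusted p = 0.0800, limma). Within days the F5 difference was 0.10 on day 1 (adjusted p = 0.606) and 0.32 on day 2 (adjusted p = 0.0779). The F5 minus F4 difference among mutants was -0.07 ± 0.13 on day 1 and 0.49 ± 0.13 on day 2 (adjusted p = 0.00816, 18.1% of all probe sets called). These day differences themselves differed by 0.57 ± 0.18 (adjusted p = 0.0144), where 38.5% of all probe sets did.

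Expression of rrf-2 was raised in mutants of both generations. It was a dim probe set, at percentiles 20.8 to 45.9 of an array on day 1 and 30.1 to 56.8 on day 2, and 2 day 1 arrays held it under their 25th percentile. F4 levels on day 1 were 3.74, 4.20 and 4.20 in +/+ from +/+ (the last 2 identical in the table), 3.80, 3.87 and 4.12 in +/+ from wdr-5 and 4.82, 4.37 and 4.74 in mutants. On day 2 they were 4.96, 5.00 and 4.95, then 4.82, 4.90 and 4.89, then 5.78, 5.52 and 5.22. The mutant arrays were above those of both other F4 groups on each day.

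F5 levels of rrf-2 on day 1 were 4.02, 3.95 and 4.12 in +/+ from +/+, 4.23 and 4.05 in +/+ from wdr-5 and 5.15, 5.14 and 4.92 in mutants. On day 2 they were 4.85, 4.97 and 4.72, then 4.78, 4.71 and 5.01, then 5.101, 5.06 and 5.32. Again no mutant array overlapped the other groups of its generation and day, though the gap was narrow on day 2. Complete separation upward from +/+ from +/+ on both days held for 2.27% of all probe sets in F4 and 8.48% in F5.

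The mutant difference of rrf-2 from +/+ from +/+ was 0.57 ± 0.11 in F4 (adjusted p = 0.000992) and 0.68 ± 0.11 in F5 (adjusted p = 3.71e-05, limma). In F4 it was alike on both days, 0.60 ± 0.13 on day 1 (adjusted p = 0.000920) and 0.54 ± 0.13 on day 2 (adjusted p = 0.00576). In F5 it was 1.04 ± 0.13 on day 1 (adjusted p = 1.84e-06) and 0.31 ± 0.13 on day 2 (adjusted p = 0.0931), and this change between days, -0.73 ± 0.19, did not pass (adjusted p = 0.137, 0.0721% of all probe sets called).

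Against +/+ from wdr-5 of the same generation, rrf-2 was higher in mutants by 0.67 ± 0.11 in F4 (adjusted p = 0.000102) and 0.61 ± 0.12 in F5 (adjusted p = 0.000293, limma). The F5 difference was 0.93 ± 0.15 on day 1 (adjusted p = 7.86e-05, 20.1% of all probe sets called) and 0.33 ± 0.13 on day 2 (adjusted p = 0.0773, 20.5%), and both calls were lost without a birth day term (adjusted p = 0.175 in F4 and 0.191 in F5). It was the 1 gene of the 5 called there in F4, where 11.8% of all probe sets passed, and with ego-1 1 of 2 called in F5, where 30.3% passed. All 6 mutant arrays were above every +/+ from wdr-5 array of their day, as for 4.12% of probe sets in F4 and 8.45% in F5. These comparisons share the mutant arrays with those against +/+ from +/+ and are not independent of them. The order of group means put both mutant groups first on each day, with F5 mutants leading on day 1 and F4 mutants on day 2, and left the wild-type groups close together.

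The rrf-2 level of F5 minus F4 mutants was 0.43 ± 0.13 on day 1 (adjusted p = 0.0121, 37.4% of all probe sets called) and -0.35 ± 0.13 on day 2 (adjusted p = 0.0652). With only the day 2 arrays in the fit, the day 2 difference passed (adjusted p = 0.0427, limma). The change of that generation difference between days was -0.77 ± 0.19 (adjusted p = 0.00216). Neither germline (r = 0.28) nor neuronal (r = 0.09) marker means tracked rrf-2 closely over the 35 day-centred arrays, and the coefficients were -0.50 with the intestine mean and -0.44 with the body wall muscle mean. Of 6 body wall muscle markers 3 fell in F4 mutants and 1 in F5 mutants, and of 6 intestine markers 1 and 3 fell. Of 10 sperm markers 3 rose in F4 mutants and 8 in F5 mutants, and rrf-2 correlated at r = 0.39 with their mean. Over all probe sets 10.3% were called in F4 and 33.1% in F5. The markers' part in the rrf-2 difference was not tested.

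**Figure D3:**
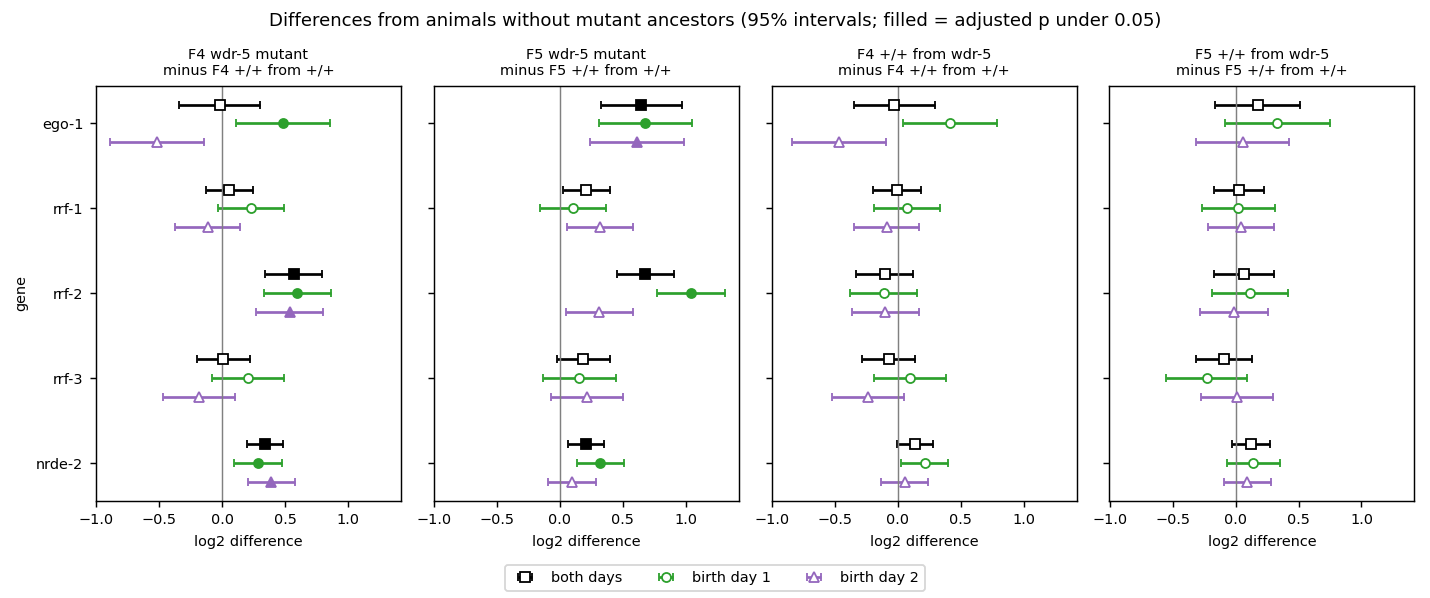
Log2 difference of each gene (horizontal axis, with its 95% interval) for mutants and for wild-type descendants, each minus +/+ from +/+ of the same generation. Squares give both days together, circles birth day 1 and triangles day 2, and filled symbols have an adjusted p under 0.05. The rrf-2 and nrde-2 squares are filled in both mutant panels, ego-1 in F5 alone, and no symbol is filled for descendants.

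The rrf-3 transcript, for the RdRP of primary endogenous siRNAs, was not called in any direct comparison. Its levels ran from 4.41 to 5.30 on day 1 and from 4.89 to 5.49 on day 2, and no neighbouring groups in the order of means differed by more than the larger SD on either day. The mutant difference was 0.01 ± 0.10 in F4 (95% interval -0.20 to 0.22, adjusted p = 0.962), with 0.20 on day 1 and -0.18 on day 2. In F5 it was 0.18 ± 0.10 (-0.03 to 0.39, adjusted p = 0.170, limma). Against F5 +/+ from wdr-5 it was 0.28 ± 0.11 (0.06 to 0.50, adjusted p = 0.0514). That difference lay at the threshold: it passed under 3 of 15 alternatives and without any 1 of 12 of the 35 arrays, where the adjusted p reached 0.0243, and with the germline marker mean as a covariate it was 0.047.

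Group means of nrde-2, a nuclear RNAi factor, were ordered by generation and, within a generation, by lineage on day 1. F4 levels were 7.18, 7.15 and 7.16 in +/+ from +/+, 7.44, 7.34 and 7.35 in +/+ from wdr-5 and 7.45, 7.41 and 7.49 in mutants. F5 levels were 7.70, 7.52 and 7.63 in +/+ from +/+, 7.74 and 7.77 in +/+ from wdr-5 and 7.82, 8.10 and 7.89 in mutants. Each F5 array was above each F4 array, and each step in the order of the 6 group means exceeded the larger SD of its pair, with overlap only between the F4 mutants and F4 +/+ from wdr-5. The share of all probe sets with such an order was not counted. The day 1 difference of +/+ from wdr-5 from +/+ from +/+ was not called in either generation. It was 0.21 ± 0.09 in F4 (adjusted p = 0.209) and 0.14 ± 0.10 in F5 (adjusted p = 0.9998, limma).

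On day 2 the F4 levels of nrde-2 were 7.91, 7.92 and 8.12 in +/+ from +/+, 8.14, 7.95 and 8.03 in +/+ from wdr-5 and 8.36, 8.41 and 8.36 in mutants. F5 levels were 8.32, 8.12 and 8.33, then 8.31, 8.20 and 8.55, then 8.26, 8.28 and 8.51 in the same order. The F4 mutants were above both other F4 groups, but the F5 groups overlapped one another.

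The mutant difference of nrde-2 was 0.34 ± 0.07 in F4 (adjusted p = 0.00170), with 0.29 ± 0.09 on day 1 (adjusted p = 0.0169) and 0.39 ± 0.09 on day 2 (adjusted p = 0.00409, limma). All 6 F4 mutant arrays were above every +/+ from +/+ array of their day, as for 2.27% of all probe sets. In F5 4 of 6 mutant arrays were, and the share of all probe sets with that count was not taken. The F5 difference was 0.21 ± 0.07 (adjusted p = 0.0225), with 0.32 ± 0.09 on day 1 (adjusted p = 0.0108) and 0.09 ± 0.09 on day 2 (adjusted p = 0.496). That F5 call was lost without F5 +/+ from +/+ replicate 2 or 5 or F5 mutant replicate 2, where the adjusted p reached 0.0772, and under quantile normalization over all arrays, which gave 0.14 (adjusted p = 0.125).

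Against +/+ from wdr-5, the nrde-2 difference was 0.21 ± 0.07 in F4 (adjusted p = 0.0516) and 0.09 ± 0.07 in F5 (95% interval -0.06 to 0.24, adjusted p = 0.387, limma). Within day 2, in the fit with a mean for each group and day, the F4 difference passed, at 0.34 ± 0.09 (adjusted p = 0.0210, 7.31% of all probe sets called). It was not called with only the day 2 arrays in the fit. Within day 1 it was 0.07 ± 0.09 (adjusted p = 0.657, 14.5% called). The test of that change between days gave 0.26 ± 0.13 (adjusted p = 0.271, 2.39% called).

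Of the 5 genes only nrde-2 passed between generations over both days. It was 0.36 ± 0.07 higher in F5 than in F4 among +/+ from +/+ (adjusted p = 0.000589, 21.7% of all probe sets called), 0.35 ± 0.07 among +/+ from wdr-5 (adjusted p = 0.00134, 24.7%) and 0.23 ± 0.07 among mutants (adjusted p = 0.0209, 17.4%, limma). On day 1 the differences were 0.45, 0.38 and 0.49 in that order, and on day 2 they were 0.27, 0.31 and -0.03. The mutants' difference changed between days by -0.51 ± 0.13 (adjusted p = 0.00334). The mutant call was also lost when each array was centred on its median (0.16, adjusted p = 0.118) and without F4 mutant replicate 2, F5 mutant replicate 2 or F5 mutant replicate 6, where the adjusted p reached 0.0729.

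The mean level of 6 neuron markers, not tested between generations, ran on day 1 from 7.11 to 7.25 in F4 and 7.37 to 7.41 in F5 +/+ from +/+, and on day 2 from 6.72 to 6.78 and 6.93 to 7.06. In +/+ from wdr-5 it ran from 6.99 to 7.19 in F4 and 7.36 to 7.41 in F5 on day 1, and from 6.76 to 6.90 and 6.96 to 7.07 on day 2. In mutants it ran from 6.93 to 7.14 and 7.09 to 7.34 on day 1, and on day 2 from 6.93 to 7.05 in F4 and 6.77 to 7.23 in F5. It was thus higher in F5 without overlap in the wild-type lineages, while the mutant ranges overlapped on both days. Over the 35 day-centred arrays nrde-2 correlated at r = 0.60 with this mean and at -0.25 with the germline mean. In the comparison of mutants with +/+ from +/+, by contrast, 1 of 6 neuron markers rose and 1 fell in F4 (10.3% of all probe sets called), and 1 rose and 2 fell in F5 (33.1%). The part of these markers in the nrde-2 differences was not tested.

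No gene of the 5 was called in genetically wild-type descendants of mutants. Among all 20806 probe sets 0 passed in F4 and 0 in F5 (limma), where 750 and 210 had an unadjusted p under 0.05. The differences from +/+ from +/+ ran from -0.11 (rrf-2) to 0.13 (nrde-2) in F4 and from -0.09 (rrf-3) to 0.18 (ego-1) in F5. For nrde-2 they were 0.13 ± 0.07 in F4 (95% interval -0.01 to 0.28) and 0.12 ± 0.07 in F5 (-0.03 to 0.27). For rrf-2 the intervals were -0.33 to 0.12 in F4 and -0.17 to 0.31 in F5, and for ego-1 -0.35 to 0.30 and -0.16 to 0.52.

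Within F4 the descendants' ego-1 difference changed sign with the day as in mutants, at 0.41 ± 0.18 on day 1 and -0.47 ± 0.18 on day 2 (adjusted p = 0.217 and 0.403, with 0.745% and 0.231% of all probe sets called). The change between days was -0.88 ± 0.26 (adjusted p = 0.0646), and 1.81% of all probe sets changed. Both F4 comparisons use the same 6 +/+ from +/+ arrays. On day 1 the ego-1 mean was 6.73 in F4 +/+ from +/+ and 7.14 in F4 +/+ from wdr-5. On day 2 the means were 7.07 and 6.61 in the same order. Mutants against these descendants, which leaves those shared arrays out, gave 0.07 ± 0.18 on day 1 and -0.06 ± 0.18 on day 2. The part of the shared arrays in the change of sign was not tested.

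The genes that work with the RdRPs were read from 3 lists: 23 partners and complex members, 11 measured genes of the mutator and siRNA amplification pathway, and 10 measured genes of nuclear RNAi. The lists were chosen for known roles, but with earlier results of these data known, so their counts are descriptions. In F4 mutants 4 of these 44 genes were called, a share near the 10.3% of all probe sets. Among the partners none rose and 3 fell, namely haf-6 at -0.69 ± 0.11 (adjusted p = 7.00e-05), an ABC transporter needed for efficient RNAi, ekl-1 at -0.24 ± 0.05 (adjusted p = 0.00307), a Tudor domain partner of EGO-1, and csr-1 at -0.45 ± 0.14 (adjusted p = 0.0367), the Argonaute loaded by the EGO-1 pathway. The mutator list held 1 riser, nyn-2 at 0.35 ± 0.10 (adjusted p = 0.0244), a ribonuclease domain gene, and no nuclear RNAi gene passed.

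The F4 medians of these lists were near 0, at 0.02 for partners, -0.01 for mutator genes and 0.05 for nuclear RNAi genes, beside -0.02 over all probe sets. By day they had opposite signs, with 0.20, 0.34 and 0.21 on day 1 and -0.19, -0.16 and -0.09 on day 2. On day 1, where 36.6% of all probe sets were called, 7 partners rose and 1 fell, 6 mutator genes rose, and 3 nuclear RNAi genes rose and 1 fell. On day 2, where 13.4% were called, 5 partners and 2 mutator genes fell, and 1 nuclear RNAi gene rose and 1 fell. The csr-1 difference was 0.06 on day 1 (adjusted p = 0.777) and -0.95 on day 2 (adjusted p = 0.000111). The haf-6 difference passed on both days, at -0.91 and -0.47 (adjusted p = 1.89e-05 and 0.0217).

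In F5 mutants 25 of the 44 genes were called, 20 of them higher, beside 33.1% of all probe sets called and 16.9% higher. Among the 23 partners 9 rose, 3 fell and 11 were not called, with a median of 0.25 beside -0.03 over all probe sets. The smallest p-values were those of haf-6, which fell by 0.92 ± 0.11 (adjusted p = 3.13e-07), rde-11, which acts with rde-10 in siRNA amplification, at 0.45 ± 0.08 (adjusted p = 0.000134), eri-9, of the endogenous siRNA pathway that RRF-3 serves, at 0.57 ± 0.12 (adjusted p = 0.000486), and drh-1, a helicase of the Dicer complex, at 0.31 ± 0.07 (adjusted p = 0.00132).

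Of the 11 mutator and amplification genes 7 rose and none fell in F5 mutants, with a median of 0.27. They were led by nyn-2 at 0.52 ± 0.10 (adjusted p = 0.000283), the ribonuclease gene rde-8 at 0.53 ± 0.12 (adjusted p = 0.000898), the exonuclease gene mut-7 at 0.27 ± 0.06 (adjusted p = 0.00129) and its partner rde-2 at 0.36 ± 0.09 (adjusted p = 0.00354). Of the 10 nuclear RNAi genes 4 rose and 2 fell, with a median of 0.26. The risers included nrde-1 at 0.42 ± 0.10 (adjusted p = 0.00229), which acts with NRDE-2 at chromatin, the SET domain gene set-32 at 0.32 ± 0.08 (adjusted p = 0.00233) and hpl-2, a heterochromatin protein gene, at 0.32 ± 0.09 (adjusted p = 0.00866). The somatic nuclear Argonaute gene nrde-3 fell by 0.33 ± 0.09 (adjusted p = 0.00731). Many of these genes are expressed in the germline, whose markers rose in the same arrays, and the part of the markers was not tested here. None of the listed genes was called in descendants of either generation.

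**Figure D4:**
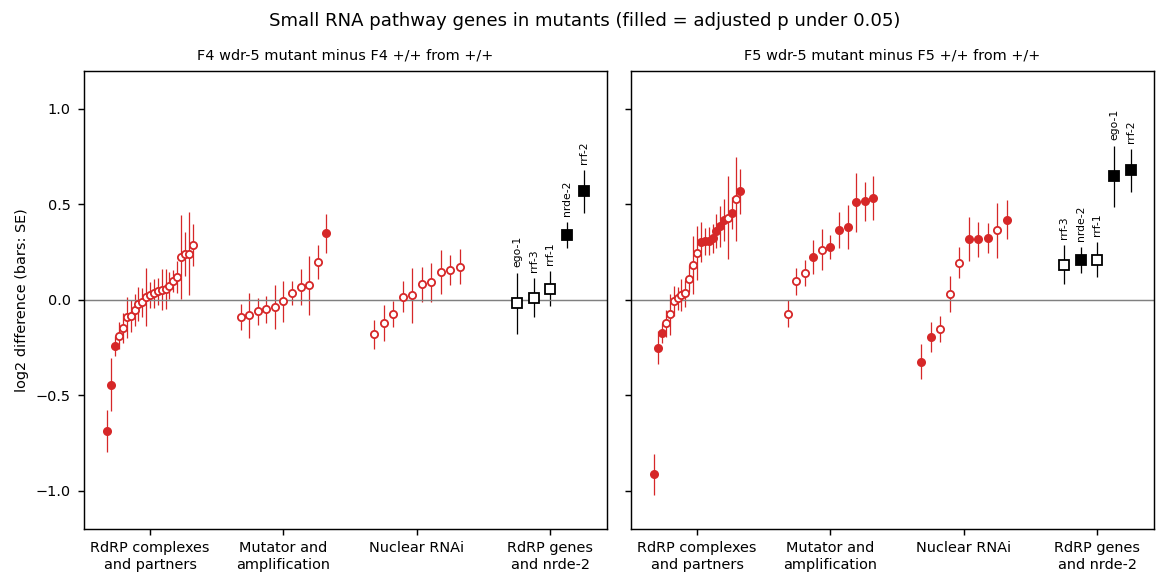
Log2 difference (vertical axis, bars are SE) of each measured gene of the 3 pathway lists and of the 5 genes in F4 mutants (left) and F5 mutants (right), each minus +/+ from +/+, sorted within a list. Filled symbols have an adjusted p under 0.05. In F5, 9 of 23, 7 of 11 and 4 of 10 listed genes are filled above 0, and in F4 1 listed gene is.

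The genes whose day-centred levels followed each member most closely over the 35 arrays, among 16780 genes, differed between members. For ego-1 they were nud-2 (r = 0.82), lst-6 (0.82) and skih-2 (0.81), and for rrf-1 hmg-1.2 (0.83), tiar-1 (0.81) and set-17 (0.77). For rrf-2 they were F35G12.12 (0.88), clec-142 (0.87) and lys-10 (0.87), for rrf-3 nra-1 (0.81), dsbn-1 (0.77) and sumv-1 (0.76), and for nrde-2 ZK1320.3 (0.90), zig-7 (0.86) and cox-6B (0.86). Among the members, the neighbouring genes ego-1 and rrf-1 had the highest coefficient (0.66), followed by ego-1 with rrf-3 (0.54) and rrf-2 with nrde-2 (0.53), and rrf-1 with rrf-2 had the lowest (0.16). The arrays share genotypes, lineages and birth days, and the coefficients describe these arrays only.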

How the data were processed

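The authors deposited 1 table for each birth day with a log2 intensity per probe set and array, and the submitters' processing notes name RMA, with the version not given in the sources used here. The log base was inferred from how far the values reach. The 35 arrays were grouped by genotype, lineage and generation from the labels. The series table held the same values, with a largest difference of 0, and 77 control probe sets were left out, leaving 20806. Of these, 15504 were named by accession and 4660 by symbol through the WBcel235 gene table. The birth day tables may have been normalized separately, an inference from identical values: no probe set had one in any of 306 pairs of arrays from different days, against up to 705 in pairs of the same day.

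Linear models were fitted with limma 3.58.1 in R 4.3.3 (moderated tests with an intensity trend, two-sided, Benjamini-Hochberg adjustment over all probe sets, threshold 0.05). The fit held a mean for each of the 6 groups and a birth day term within each generation, with 27 residual degrees of freedom. Differences within a day and between days came from a fit with a mean for each group and day, with 23. Precision is limited by the number of arrays. The fit was tested on simulated data. Alternatives changed the day term, arrays, scaling, filter and covariates. The main fit did not pair arrays by replicate number. Of 85 same-numbered pairs, 28 had deviations correlated above 0.1 (range -0.31 to 0.50), and 16 of 35 arrays correlated best with an array of their own number. These values do not settle whether the numbers pair arrays.

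The 5 genes and the lists of pathway and marker genes were chosen with earlier results of these data known. For each gene, the 3 genes with the highest day-centred correlation were named, and in each pathway list the called genes with the smallest p-values, up to 4 per comparison. The germline covariate and the alternatives for differences between generations were added after the data were seen.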

Additional observations from a re-analysis of the deposited data

Results flagged for a closer look

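Single arrays stood far from the others of their group in 4 of the 30 combinations of gene and group, where levels were taken relative to the mean of their birth day. Chance alone gives about 1 such array in 20 groups. The rrf-1 level of F5 +/+ from +/+ replicate 4 was 0.14 above its day's mean. The rrf-2 level of F4 +/+ from +/+ replicate 1 was -0.58, the rrf-3 level of F5 +/+ from +/+ replicate 5 was -0.33, and the nrde-2 level of F4 +/+ from +/+ replicate 6 was -0.11, each relative to the day mean.

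Other results differed between birth days or generations by a test of the difference itself (limma). The generation difference in mutants, F5 minus F4, changed from day 1 to day 2 by 0.57 for rrf-1, by -0.77 for rrf-2 and by -0.51 for nrde-2. The F4 mutant difference of ego-1 changed from day 1 to day 2 by -1.002. On day 2 the F4 mutant difference of ego-1 minus the F5 mutant difference was -1.13. In these comparisons 38.5%, 33.0% and 20.2% of all probe sets passed, in the order of the mutant generation difference, the F4 mutant difference and the day 2 contrast.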

How the results depend on the processing

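Of the mutant calls against +/+ from +/+, rrf-2 in F4 and F5, nrde-2 in F4 and ego-1 in F5 kept their direction under all 15 alternatives and without each of the 35 arrays in turn, and lost the call only as given here. Without a birth day term the calls were lost with the values kept, at 0.57 for rrf-2 (adjusted p = 0.338) and 0.34 for nrde-2 (adjusted p = 0.673) in F4, and 0.68 for rrf-2 (adjusted p = 0.0708) and 0.21 for nrde-2 (adjusted p = 0.745) in F5. On birth day 2 alone F5 rrf-2 was 0.31 (adjusted p = 0.0625) and F5 nrde-2 0.094 (adjusted p = 0.545). F5 nrde-2 was also lost with only the compared groups in the fit, at 0.21 (adjusted p = 0.0863), and under quantile normalization, at 0.14 (adjusted p = 0.125). With the germline marker mean as a covariate F5 ego-1 was 0.36 (adjusted p = 0.127), F5 rrf-3 -0.042 and F4 ego-1 0.0090. The F4 difference of rrf-1 was -0.12 on day 2 alone, that of ego-1 0.48 on day 1 alone, and that of rrf-3 -0.18 on day 2 alone, -0.042 under quantile normalization and -0.0050 with each array minus its median. The cause of these shifts was not tested. The largest shift of the median of all probe sets under either scaling was -0.03. The F4 nrde-2 difference between mutants and +/+ from wdr-5 (adjusted p = 0.0516) passed under 4 of the 15 alternatives.

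The number of probe sets called moved further. In F4 mutants it was 2142, and 409 without a birth day term, 3578 with a mean per group and day, 6335 on day 1 alone, 913 with only the compared groups, 1425 with a replicate block and 4953 with the germline covariate. In F5 mutants it was 6878, and 2776 without a birth day term, 4540 on day 1 alone, 4228 on day 2 alone and 3098 with the germline covariate. For descendants it was 0 and became 9 (day 1) and 10 (day 2) in F4 and 2 (day 1) in F5. For mutants minus +/+ from wdr-5 it was 2455 in F4, and 599 without a birth day term, 1254 on day 2 alone and 4386 with the germline covariate. In F5 it was 6294, and 2412 without a birth day term, 3450 on day 1 alone and 2627 with the germline covariate. The replicate block changed no other call among the 5 genes than that of nrde-2 between generations in mutants, 0.23 (adjusted p = 0.0581), and of 35 arrays 16 correlated best with an array of their own number.

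Differences that did not pass the test also changed sign. For F4 descendants on day 1 alone, rrf-1 was 0.072, rrf-3 0.095 and ego-1 0.41. For F5 descendants, rrf-1 was -0.028 without a birth day term, and on day 2 alone rrf-2 was -0.013 and rrf-3 0.011. For F4 mutants minus +/+ from wdr-5, on day 2 alone rrf-1 was -0.027 and ego-1 -0.055, and ego-1 was -0.0097 under quantile normalization and -4.83e-05 with each array minus its median. For the F4 minus F5 mutant difference, on day 1 alone rrf-1 was 0.13, rrf-3 0.048 and nrde-2 -0.035, on day 2 alone rrf-2 was 0.22, and with the germline covariate rrf-3 was 0.075. For the F4 minus F5 descendant difference, without a birth day term rrf-1 was 0.020, rrf-3 -0.020 and nrde-2 -0.042, on day 1 alone rrf-1 was 0.050 and ego-1 0.080, on day 2 alone rrf-3 was -0.25 and nrde-2 -0.039, and under quantile normalization rrf-3 was -0.054.

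For F5 minus F4 in +/+ from +/+, rrf-3 was -0.16 on day 2 alone and -0.045 under quantile normalization, and ego-1 was 0.0018 with the germline covariate. For F5 minus F4 in +/+ from wdr-5, rrf-2 was -0.037 on day 2 alone, rrf-3 -0.031 on day 1 alone and -0.0062 with each array minus its median, and ego-1 8.30e-06 on day 2 alone and 0.19 with the germline covariate. For F5 minus F4 in mutants, rrf-1 was -0.074 on day 1 alone, and rrf-2 -0.12 under quantile normalization and -0.029 with each array minus its median. With the arrays of a single day in the fit, rrf-2 passed in opposite directions. It was 0.43 on day 1 alone (adjusted p = 0.0277) and -0.35 on day 2 alone (adjusted p = 0.0427, limma). On day 2 alone rrf-1 passed too, at 0.49 (adjusted p = 0.00833). The nrde-2 difference, which passed over both days, was -0.025 on day 2 alone. The nrde-2 generation calls were lost without a birth day term in +/+ from +/+ (adjusted p = 0.442), +/+ from wdr-5 (adjusted p = 0.398) and mutants (adjusted p = 0.931), on day 2 alone in +/+ from +/+ (0.27, adjusted p = 0.0953) and +/+ from wdr-5 (0.31, adjusted p = 0.155), and in mutants also with 1 birth day term for both generations (adjusted p = 0.0549), under quantile normalization (adjusted p = 0.0513) and with each array minus its median (adjusted p = 0.118). Among mutants ego-1 passed between generations with a mean per group and day (0.40, adjusted p = 0.0268), on day 2 alone (0.61, adjusted p = 0.0226) and with the germline covariate (0.35, adjusted p = 0.0478).

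Leaving out 1 array at a time gave the following ranges. The count of probe sets called in F4 mutants ran from 1403 (without F4 +/+ from +/+ replicate 2) to 2812 (without F4 +/+ from +/+ replicate 4). The F4 mutant difference ran from -0.041 to 0.070 for rrf-3 and from -0.16 to 0.11 for ego-1, and the F5 mutant difference of nrde-2 from 0.16 to 0.24. In descendants, rrf-1 ran from -0.062 to 0.062 in F4 and -0.022 to 0.069 in F5, and F4 ego-1 from -0.17 to 0.10. For mutants minus +/+ from wdr-5, F4 rrf-1 ran from -0.0043 to 0.12, F4 ego-1 from -0.070 to 0.089, F4 nrde-2 from 0.17 to 0.23, F5 rrf-3 from 0.21 to 0.33 and F5 ego-1 from 0.41 to 0.54. For the F4 minus F5 descendant difference, rrf-1 ran from -0.088 to 0.035, rrf-3 from -0.028 to 0.10 and nrde-2 from -0.020 to 0.066. For F5 minus F4, ego-1 in +/+ from +/+ ran from -0.41 to -0.14, in +/+ from wdr-5 rrf-3 ran from -0.0039 to 0.094 and ego-1 from -0.14 to 0.0072, and in mutants rrf-2 ran from -0.026 to 0.11, ego-1 from 0.31 to 0.47 and nrde-2 from 0.18 to 0.26. Each gene had 1 probe set, so the alternative of another probe set of the same gene was not run.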
